A study of Homo sapiens with 3 samples.

Results

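Mitochondrial ribosomal protein mRNAs are the nuclear messages for the proteins of the mitochondrial ribosome. They were taken as the protein-coding genes of GENCODE 29 whose symbol starts with MRPL (large subunit) or MRPS (small subunit) followed by a number. That rule gave 78 genes, of which 76 had rows in the deposited tables, among 52992 genes in all and 19428 protein-coding genes. The 76 comprised 48 large-subunit and 28 small-subunit genes with 493 transcript rows, and all 76 passed the minimum of a mean of 10 estimated counts over the libraries. MRPL45 and MRPS21 had no matched row and were not analysed here. The rule used names only and no measured value.

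The study sequenced RNA that 3 bait proteins pulled out of a lysate of J82 cells, an established human bladder cancer line grown to near confluence, on a BGISEQ-500. The baits were glutathione S-transferase (GST) fused to an alanine (Ala) mutant of ZFP36L1, GST fused to wild-type ZFP36L1, and GST alone, so that all 3 carried GST. The labels do not give the positions changed in the mutant. There was 1 library per bait, with no replicate, so no ratio below has a replicate check and no p-value is given. No library of the lysate itself was used here.

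Mitochondria keep their own ribosome, which translates the few membrane proteins encoded in mitochondrial DNA. Its ribosomal RNAs come from that DNA, while its proteins are encoded in the nucleus, translated in the cytosol and imported. Many of them have counterparts in bacterial ribosomes and the others were added during mitochondrial evolution. ZFP36L1 belongs to the ZFP36 (tristetraprolin) family of zinc-finger proteins, which bind AU-rich elements in 3′ untranslated regions (UTRs) and recruit the deadenylation and decay machinery. The core site of the family is UAUUUAU, written TATTTAT below.

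That core site was uncommon in these messages. It stood in the 3′ UTR of the main coding transcript in 6 of the 75 members with a usable sequence (8%), against 29.6% of 11455 protein-coding genes, 5.13% of 78 nuclear-encoded respiratory chain genes and 3.80% of 79 cytosolic ribosomal protein genes. The shorter motif ATTTA stood in 42.7% of the members and 66.3% of the protein-coding genes. The 3′ UTRs were short, with a median of 281 bases in the members and 895 bases in the protein-coding genes, so less sequence was searched. Only the transcript strand was searched, and TATTTAT always contains ATTTA. The sites are shown because they are the letters by which this protein family is known to recognise RNA. Each line gives 27 bases of a GENCODE 29 transcript from 5′ to 3′, with the core site in capitals and GRCh38 coordinates.
MRPL33, chr2:27779673-27779699, plus strand: gcatcacattTATTTATctttctgggt
MRPL19, chr2:75656729-75656755, plus strand: tgtgggtctaTATTTATccattgtatt
MRPL19, chr2:75657128-75657154, plus strand: tttctttctgTATTTATtttttgttgt
MRPS10, chr6:42207622-42207648, minus strand: ctagttgtatTATTTATcctatgattc
MRPL57, chr13:21177994-21178020, plus strand: aagtaaaagaTATTTATcagagctgtt
MRPL50, chr9:101390218-101390244, minus strand: attaggtcatTATTTATgaaaagtttt
MRPL17, chr11:6681907-6681933, minus strand: tatataaattTATTTATtttttccttc
MRPL22 and MRPL35 carry the site only in isoforms with a longer 3′ UTR, shown for the comparison of isoforms further on.
MRPL22, chr5:154967023-154967049, plus strand: tgtaaatgaaTATTTATaaggctttgc
MRPL35, chr2:86211660-86211686, plus strand: gaaagataggTATTTATtttttctaga
MRPL35, chr2:86212866-86212892, plus strand: atttataaaaTATTTATgtatagtttg

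The libraries held 19153483 estimated counts for the Ala mutant, 19845386 for the wild type and 19137867 for GST. Levels are estimated counts scaled by TMM to a common library size (CPM), so every ratio compares shares of a library and not amounts of RNA pulled down. Genes of the mitochondrial genome took 7.53% of the counts in the Ala mutant, 15.5% in the wild type and 10.6% in GST. Of the urothelial and epithelial markers, 5 of 10 reached the minimum count, led by KRT18, while KRT19 and UPK3A were at 0 in every library. All 4 mesenchymal markers reached it, led by VIM, as did 1 of 5 leukocyte markers (summed level at most 1.23 CPM in any library) and none of 3 erythroid and 3 hepatocyte markers. The name of the deposited GST table carries another run code than those of the 2 ZFP36L1 proteins, so run and GST cannot be told apart in a ratio to GST.

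In the wild-type pull-down most mitochondrial ribosomal protein mRNAs held a smaller share of the RNA than with GST, and a few held a larger one. Higher and lower here mean a ratio of at least 2-fold whose 95% interval, by the exact Clopper-Pearson method on how the 2 libraries divide a gene's counts, excludes 1. These intervals cover counting error only. By that rule 4 of the 76 members were higher and 46 were lower in wild type over GST, while 26 lay between. Over all 14082 genes tested, 25.5% were higher and 34.2% were lower. The median log2 ratio was −1.61 for the members and −0.04 for all genes. The quartiles of the members were −2.87 and 0.15, and the range was −4.08 to 2.26. Summed over the 76 genes, the messages made up 0.767% of the counts in the Ala mutant, 0.467% in the wild type and 0.627% in GST.

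MRPL33 (ENSG00000243147, chromosome 2), the counterpart of a small bacterial large-subunit protein, was the highest of the members. It had 1575 estimated counts in the Ala mutant, 8955 in the wild type and 1771 in GST, or 92.1, 448.5 and 93.9 CPM in that order. Wild type stood alone, and the Ala mutant and GST were close together. Its log2 ratio was 2.26 (2.18 to 2.33) in wild type over GST, a 4.78-fold difference, and −0.03 (−0.13 to 0.07) in Ala mutant over GST. On the deposited TPM scale, which corrects for transcript length, it was also the most abundant member on the mean of the libraries, at 183 TPM in the Ala mutant, 1328 in the wild type and 227 in GST.

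The other 3 members that rose with the wild type were MRPL42, MRPS36 and MRPL18. MRPL42, a large-subunit protein specific to mitochondria, had 61.3 CPM in the Ala mutant, 186.5 in the wild type and 54.2 in GST, with a log2 ratio of 1.78 (1.68 to 1.88) in wild type over GST. MRPS36, which was named as a small-subunit protein and is now known as a subunit of the 2-oxoglutarate dehydrogenase complex, had 27.8, 97.2 and 30.6 CPM in the same order, a log2 ratio of 1.67 (1.53 to 1.80). MRPL18, the counterpart of a bacterial protein that binds 5S ribosomal RNA, had 256.8, 560.6 and 249.9 CPM, a log2 ratio of 1.17 (1.12 to 1.22). In all 4 genes the Ala mutant lay near GST. Its log2 ratios to GST were between −0.14 and 0.18. MRPL30 at 0.98 and MRPS33 at 0.96 lay just under the limit, and MRPL3, a counterpart of a bacterial protein that reaches towards the peptidyl transferase centre, followed at 0.79.

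**Figure D1:**
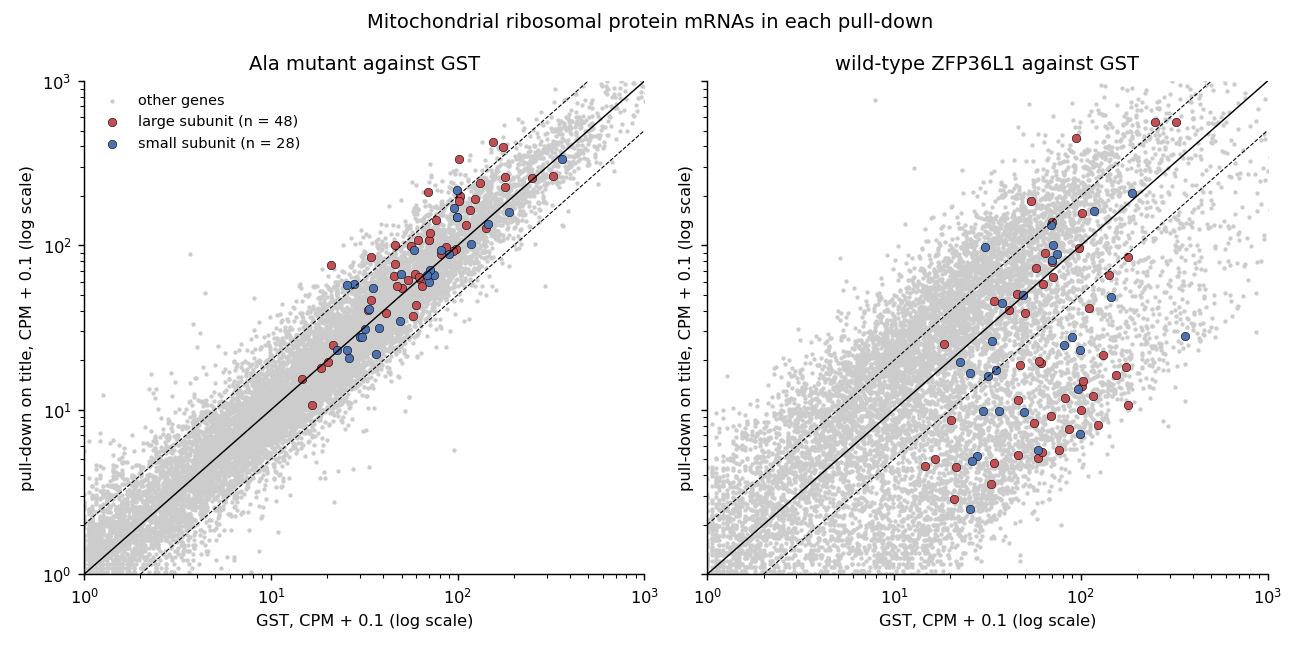
Level of each of the 76 members in the Ala mutant, wild-type and GST libraries, in TMM-scaled CPM on a log axis, with 1 point for each gene, for the large subunit and the small subunit. The median large-subunit gene stood at 93.6 CPM in the Ala mutant, 18.4 in the wild type and 67.0 in GST, and a few genes such as MRPL33 run against the others.

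At the other end, MRPL2 and MRPL24 had the lowest ratios. MRPL2, the counterpart of a bacterial protein close to the peptidyl transferase centre, had 3853 counts in the Ala mutant, 210 in the wild type and 3362 in GST. Its log2 ratio in wild type over GST was −4.08 (−4.29 to −3.88), 16.9-fold lower. MRPL24, the counterpart of a bacterial protein that binds early in large-subunit assembly, had 3278, 160 and 2340 counts in the same order and a log2 ratio of −3.95 (−4.19 to −3.72). In both genes the wild type was low and the Ala mutant was above GST by less than 2-fold.

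In the small subunit MRPS34, which is specific to mitochondria, had 2557 counts in the Ala mutant, 141 in the wild type and 1876 in GST, with a log2 ratio of −3.81 (−4.07 to −3.57) in wild type over GST. MRPS15, whose bacterial counterpart binds 16S ribosomal RNA, was the most abundant member in GST, at 5726, 558 and 6813 counts in the same order, a log2 ratio of −3.69 (−3.82 to −3.57). These 2 genes were the lowest of the small subunit. MRPL38 at −3.77, MRPL20 at −3.55, MRPL9 at −3.50, MRPL21 at −3.49, MRPS2 at −3.39 and MRPS18A at −3.38 completed the 10 lowest log2 ratios in wild type over GST. MRPL38 shares most of its sequence with another annotated gene. Most of its counts lay on a retained_intron row, with 1907 in the Ala mutant, 99.3 in the wild type and 1199 in GST, and its protein_coding row had 88.5, 3.76 and 0, too few in the last 2 to give a direction.

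MRPS11 at −1.01 was the member just inside the lower limit and MRPS9 at −0.99 the one just outside it. Coverage set how narrow these intervals are. The 76 members had between 182 and 7277 counts in the Ala mutant (median 1312.5), between 48 and 11192 in the wild type (median 387) and between 273 and 6813 in GST (median 1201.5). Across 75 members the log2 ratio of wild type over GST was nearly unrelated to the mean TPM, with a Spearman rho of −0.12 as a description.

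With the Ala mutant the same messages stayed close to GST or above it. By the 2-fold rule 10 of the 76 were higher in Ala mutant over GST, none was lower and 66 lay between, against 9% higher and 5.13% lower among all genes. The median log2 ratio was 0.19 for the members and 0.04 for all genes. Values ran from −0.74 to 1.87, and 46 members lay above 0. All 10 that rose with the mutant were among the 46 counted as lower in wild type over GST, while the 4 that rose with the wild type were not called in the mutant. Both ratios share the GST library, and 60.5% of the members were lower in wild type over GST. The same overlap over all genes is not given here, so it is not shown to be particular to the members. The median of all genes moves with the scaling in this comparison. When the totals used for scaling omitted the 20 most abundant genes along with mitochondrial and ribosomal RNA genes, the members' median was −0.03 and that of all genes −0.17.

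Of those 10, MRPL55 and MRPL41, both specific to mitochondria, and MRPL12, the counterpart of the bacterial stalk protein L7/L12 that recruits translation factors, had the highest ratios. MRPL55 had 76.1 CPM in the Ala mutant, 2.75 in the wild type and 20.8 in GST, a log2 ratio of 1.87 (1.70 to 2.04) in Ala mutant over GST. MRPL12 had 337.5, 13.9 and 101.8 CPM in the same order, a log2 ratio of 1.73 (1.66 to 1.81). MRPL41 had 209.8, 9.07 and 69.5 CPM, a log2 ratio of 1.59. In each the order was Ala mutant, GST, wild type from high to low.

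MRPL23, the counterpart of a bacterial protein at the exit of the peptide tunnel, was the most abundant member in the Ala mutant, with 425.3 CPM there, 16.2 in the wild type and 154.9 in GST. Its log2 ratio in Ala mutant over GST was 1.46 (1.39 to 1.52). The others that rose were MRPL54 at 1.32, MRPL28 at 1.19, MRPS18A at 1.18, MRPL53 at 1.13, MRPS26 at 1.12 and MRPS12, whose bacterial counterpart takes part in decoding, at 1.08. The interval of MRPS12 was 0.93 to 1.24. At the low end of Ala mutant over GST stood MRPS31 at −0.74, MRPL39 at −0.63, MRPL1 at −0.62, MRPS30 at −0.51 and MRPL47 at −0.46, none of them 2-fold.

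**Figure D2:**
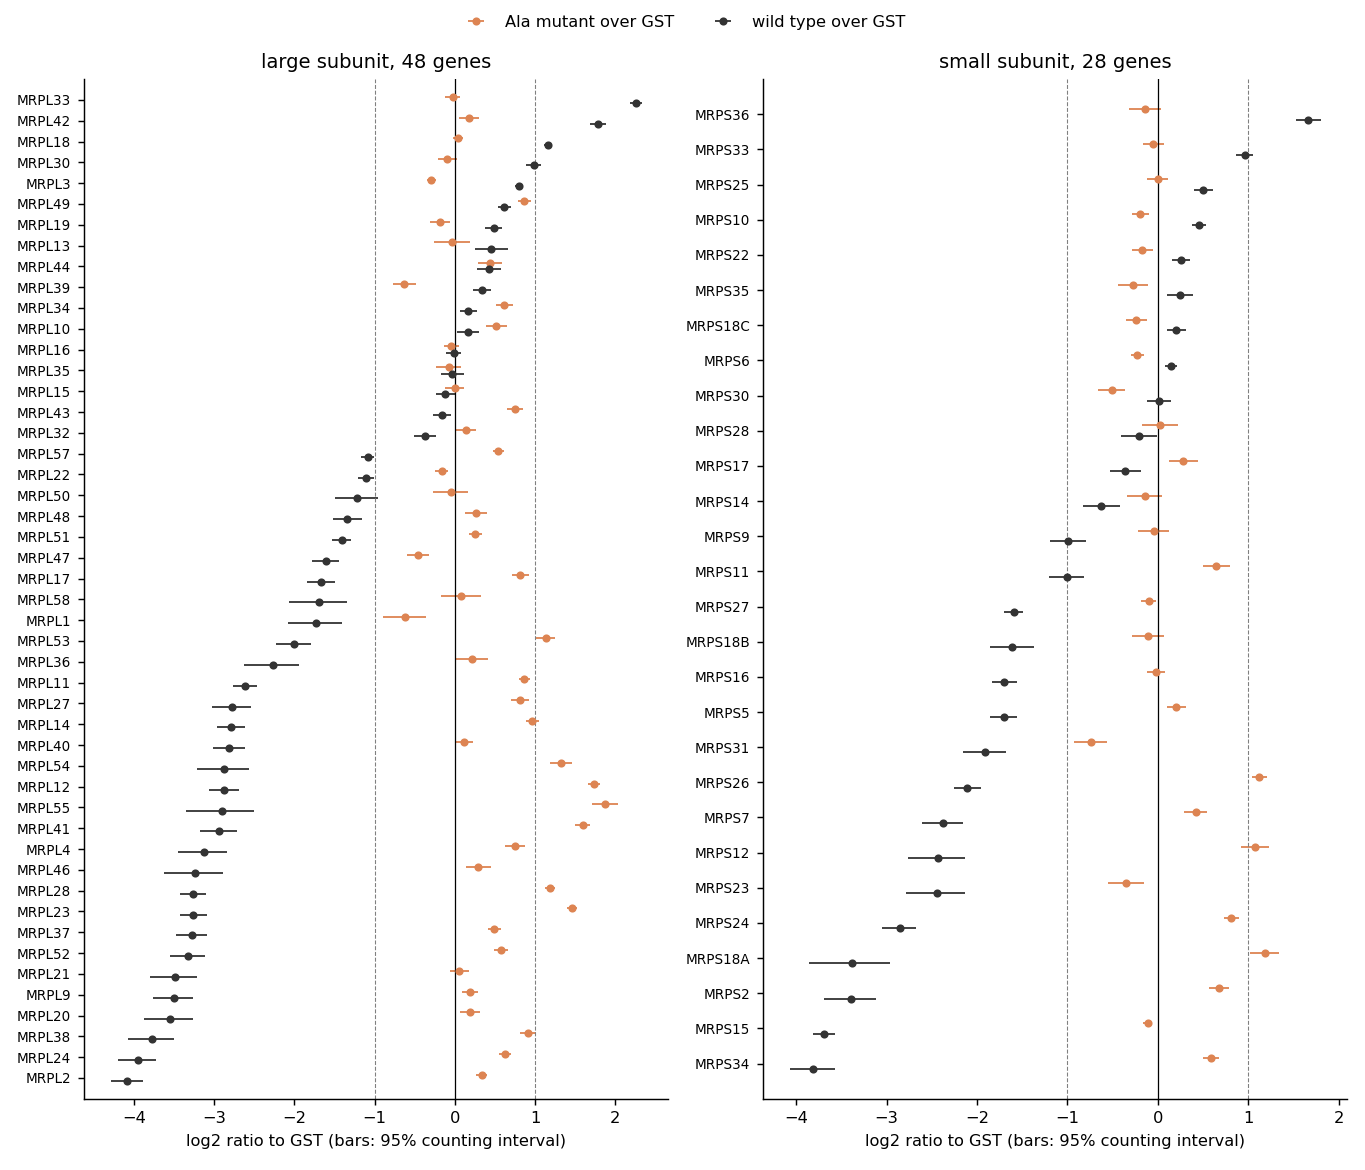
Log2 ratio to GST of each large-subunit gene (48) and small-subunit gene (28), for the Ala mutant (orange) and the wild type (black), with bars for the exact 95% counting interval and dashed lines at 2-fold. Genes are ordered by the wild-type ratio, which runs from 2.26 in MRPL33 to −4.08 in MRPL2, while the Ala mutant runs between −0.74 and 1.87.

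Set against each other directly, the mutant and the wild type differed for most members. In Ala mutant over wild type 45 members were higher and 7 lower, while 24 lay between, beside 36.1% higher and 30.1% lower over all genes. The median log2 ratio was 1.62 for the members and 0.04 for all genes. The highest were MRPL55 at 4.78 (4.40 to 5.20), MRPL23 at 4.71 (4.56 to 4.88) and MRPL38 at 4.68 (4.41 to 4.98), followed by MRPL12, MRPL24, MRPS18A, MRPL41, MRPL28, MRPL2 and MRPS34, whose values lay between 4.60 and 4.40. The 7 that fell were MRPL33 at −2.28, MRPS36 at −1.81, MRPL42 at −1.60, MRPL18 at −1.13, MRPL3 at −1.09, MRPL30 at −1.08 and MRPS33 at −1.01. MRPL3 is above 0, at 0.36, when only its transcript row with the highest TPM is used, where the median of all genes was 0.09.

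Both subunits held more lower than higher genes with the wild type and no lower gene with the mutant. In wild type over GST the large subunit had 3 of 48 genes higher and 31 lower, with a median log2 ratio of −1.68. The small subunit had 1 of 28 higher and 15 lower, with a median of −1.30. Its higher gene was MRPS36, which stays in that group throughout by its name. The difference of the medians, large minus small, was −0.38. It turned to 0.24 with protein_coding rows alone and to 0.15 with the row of highest TPM, so these data give no steady order of the subunits in that ratio. The mutant over GST had 7 large-subunit and 3 small-subunit genes higher, with medians of 0.28 and −0.05. Against the wild type, the mutant had 30 of 48 large-subunit genes higher and 5 lower (median 1.72), and 15 of 28 small-subunit genes higher and 2 lower (median 1.33). MRPS18A and MRPS30 sit in the large subunit in the known structure despite their names, and moving them left the 3 pairs of medians as they were. Those 2 genes themselves differed, with log2 ratios in wild type over GST of −3.38 for MRPS18A and 0.01 for MRPS30.

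**Figure D3:**
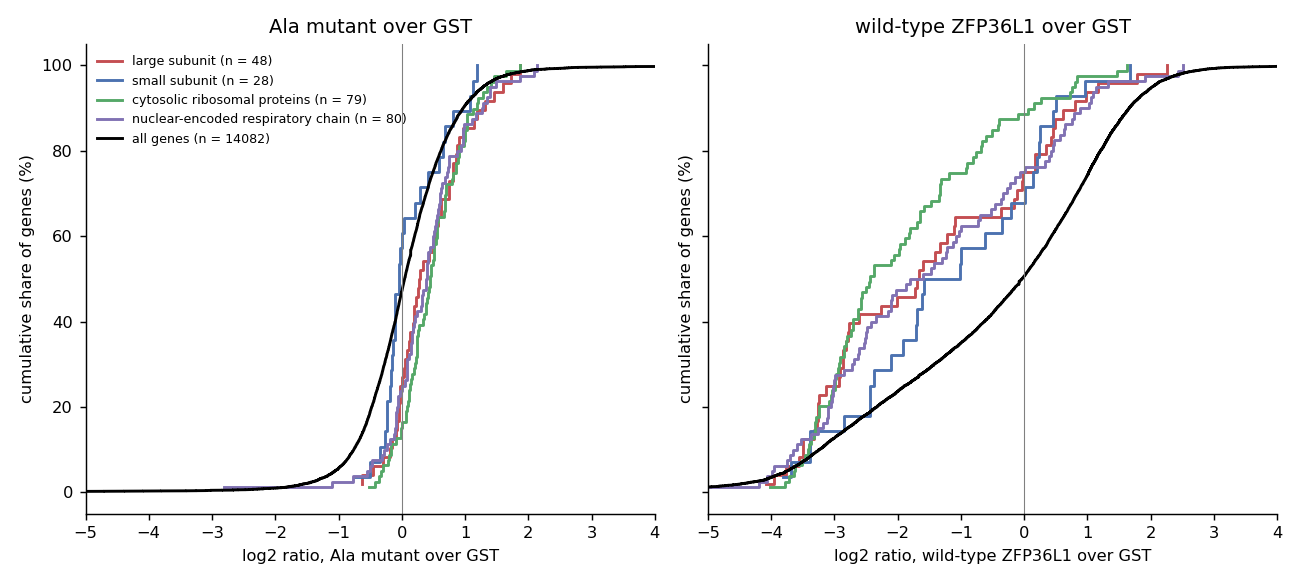
Cumulative share of genes by log2 ratio for Ala mutant over GST and for wild type over GST. The curves show the large subunit (48 genes), the small subunit (28), cytosolic ribosomal proteins (79), the nuclear-encoded respiratory chain (80) and all genes (14082). In wild type over GST both mitoribosomal curves lie left of all genes (median −0.04), at medians of −1.68 and −1.30, and the cytosolic ribosomal proteins lie further left at −2.44.

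Proteins with a bacterial counterpart were compared with those specific to mitochondria, read from the numbers in their names. Of 43 members with a counterpart, 2 were higher and 25 lower in wild type over GST, with a median log2 ratio of −1.67. Of 33 specific to mitochondria, 2 were higher and 21 lower, with a median of −1.59. Within the large subunit the medians were −1.65 for 20 mitochondria-specific members (15 lower) and −1.70 for 28 with a counterpart (16 lower). Within the small subunit they were −0.21 for 13 mitochondria-specific members (6 lower) and −1.61 for 15 with a counterpart (9 lower). The 13 include MRPS36 (1.67), now known from another complex, and MRPS30 (0.01), which sits in the large subunit. The 15 include MRPS18A (−3.38), also of the large subunit. With MRPS36 and MRPS30 left out, the middle mitochondria-specific member was MRPS27 at −1.59, so this contrast depends on how such genes are assigned.

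Paralogues and neighbours could differ. The following genes were chosen after their values were seen. MRPS18A, MRPS18B and MRPS18C are paralogues of the same bacterial protein, S18. MRPS18A had 57.4 CPM in the Ala mutant, 2.40 in the wild type and 25.3 in GST. MRPS18B had 27.5, 9.72 and 29.7 CPM in the same order. MRPS18C had 59.4, 80.8 and 70.0 CPM. The log2 ratios in wild type over GST were −3.38 (−3.85 to −2.96), −1.61 (−1.85 to −1.37) and 0.21 (0.10 to 0.31), and their counting intervals did not overlap. MRPL46 (GRCh38 chromosome 15, 88459476 to 88467419, minus strand) and MRPS11 (chromosome 15, 88467453 to 88480773, plus strand) lie head to head. Their log2 ratios were −3.24 (−3.63 to −2.89) and −1.01 (−1.20 to −0.82). MRPL46 and MRPS18C share sequence with other annotated genes, and these intervals do not cover how reads were divided among them.

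Proteins that sit together in the ribosome also differed. Of the stalk and its base, MRPL10 had 64.8 CPM in the Ala mutant, 50.7 in the wild type and 45.2 in GST, a log2 ratio of 0.16 in wild type over GST, while MRPL11 at −2.62 and MRPL12 at −2.87 fell. Around the exit of the peptide tunnel, the members picked were MRPL22 at −1.11, MRPL23 at −3.26 and MRPL24 at −3.95, which fell by unequal amounts. They are not all the proteins of that site. MRPL58, which is also known as the peptidyl-tRNA hydrolase ICT1, fell with a log2 ratio of −1.69 (−2.06 to −1.35). MRPL44, which has an RNase III-like fold, was at 0.43 (0.28 to 0.58).

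The members that carry TATTTAT did not share a direction. In wild type over GST the log2 ratios were 2.26 for MRPL33, 0.48 for MRPL19, 0.46 for MRPS10, −1.09 for MRPL57, −1.22 for MRPL50 and −1.67 for MRPL17. Thus 1 of 6 was higher and 3 were lower, with a median of −0.32, against 3 higher and 42 lower of 69 members without the site (median −1.69). Over protein-coding genes the medians were 0.96 for 3389 with the site and −0.67 for 8066 without it. Of those with the site 48.1% were higher and 7.94% lower, and of those without it 18.1% and 44.7%. MRPL42, MRPS36 and MRPL18 were higher without this site in the main transcript, which for MRPL42 holds only 5.19% of the gene's TPM. In MRPL17 the transcript with the site holds only 10.3% of the gene's TPM. That transcript was at −1.13 (−1.40 to −0.88), and the rows of MRPL17 not coding or not checked were at −2.02. None of the 6 members with the site was called in Ala mutant over GST, where their median was −0.04. Of the protein-coding genes with the site 2.30% were higher and 7.64% lower there.

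MRPL19, MRPL22 and MRPL35 each had coding isoforms with and without the site in their 3′ UTRs, which were compared after the files were seen. In MRPL35 the isoform with a 3′ UTR of 3126 bases and 2 sites had 12.7 CPM in the Ala mutant, 27.5 in the wild type and 15.2 in GST. The isoforms without a site had 26.2, 12.7 and 25.9 CPM in the same order. The log2 ratios in wild type over GST were 0.85 (0.65 to 1.06) with the site and −1.02 (−1.25 to −0.80) without it, while the whole gene was at −0.03. For the Ala mutant over GST they were −0.26 (−0.52 to 0.00) and 0.02 (−0.17 to 0.21).

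In MRPL22 the 2 isoforms with a site had 10.4 CPM in the Ala mutant, 14.98 in the wild type and 11.7 in GST, a log2 ratio of 0.35 (0.10 to 0.61) in wild type over GST. The isoform without it had 46.5, 17.7 and 86.8 CPM and a log2 ratio of −2.30 (−2.47 to −2.13). The rows of MRPL22 not coding or not checked had 69.6, 33.0 and 43.0 CPM and a log2 ratio of −0.38 (−0.53 to −0.23). In MRPL19 the isoform with 2 sites had 42.0, 89.5 and 49.4 CPM and a log2 ratio of 0.86 (0.74 to 0.97). The 3 without a site had 14.7, 0.747 and 15.2 CPM and a log2 ratio of −4.29 (−5.19 to −3.59). In all 3 genes the summed isoforms with the site had the higher ratio, but in MRPL22 the 2 with the site differed from each other. The first had 178.0 counts in the Ala mutant, 299.0 in the wild type and 150.9 in GST, a log2 ratio of 0.90 (0.62 to 1.20) in wild type over GST. The second was at 0 in the Ala mutant, 0.00617 in the wild type and 70.5 in GST, below the isoform without the site in that ratio. In these 3 genes the isoforms with the site also have the longer 3′ UTR, and the part of length and base composition was not tested. The program divides reads among overlapping isoforms, and these intervals do not cover the error of that division.

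**Figure D4:**
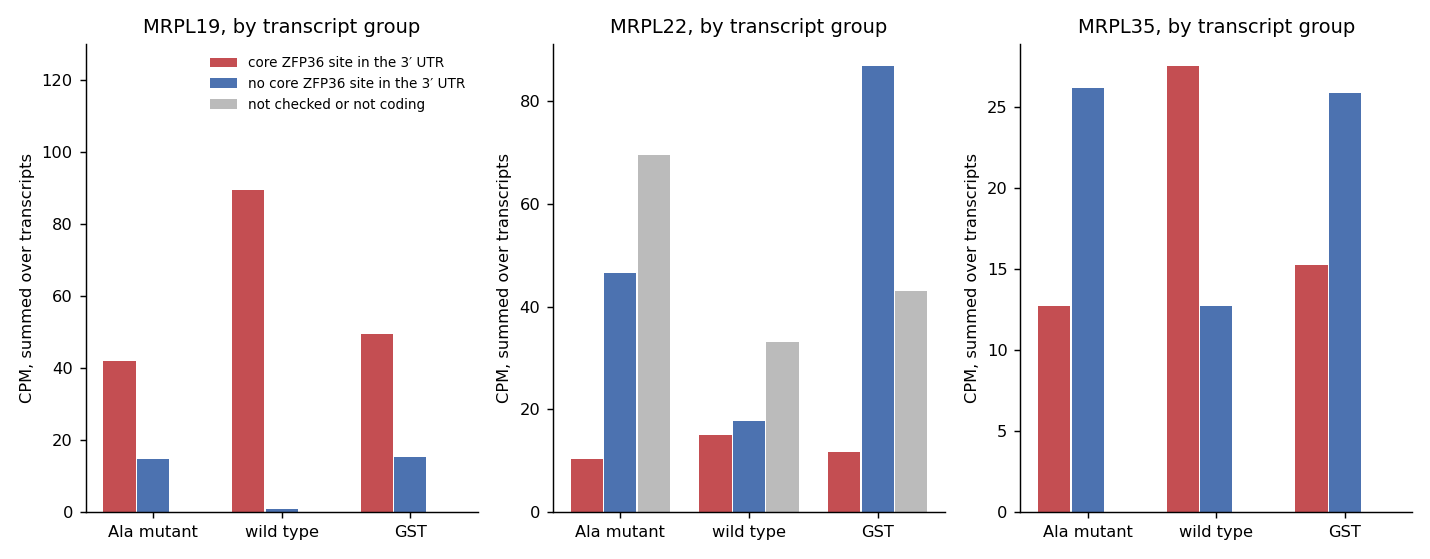
CPM summed over transcripts with TATTTAT in the 3′ UTR (red), without it (blue) and not coding or not checked (grey), for MRPL19, MRPL22 and MRPL35 in the Ala mutant, wild type and GST, on axes of different height that start at 0. In MRPL35 the red bar is the taller only in the wild type, at 27.5 against 12.7 CPM.

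Of the members' coding transcripts, 165 had at least 10 counts on average, but not all had a 3′ UTR that was checked. Among the checked ones, 10 transcripts of 8 genes held the site and 145 transcripts of 68 genes did not. In wild type over GST the first had 2 higher and 4 lower with a median log2 ratio of 0.65, and the second 11 higher and 88 lower with a median of −2.39. The shares higher and lower over the transcripts of all genes are not given here. By annotation, protein_coding rows took 72.5% of the members' counts in the Ala mutant, 76.8% in the wild type and 76.8% in GST, and retained_intron rows 7.87%, 4.13% and 6.30% in the same order. Over all protein-coding genes the first took 81.2%, 85.7% and 82.5%, and the second 6.66%, 5.71% and 6.14%. In the small subunit processed_transcript rows, which have no coding sequence, took 12.1% in the Ala mutant, 24.5% in the wild type and 11.2% in GST. Most of that in the wild type lay on a single row of MRPS6 with 3987 counts, beside 2269 in the Ala mutant and 2882 in GST. Over all protein-coding genes processed_transcript rows took 6.86% in the Ala mutant, 5.05% in the wild type and 6.63% in GST. MRPS6 as a gene was nearly level, at a log2 ratio of 0.15 (0.08 to 0.21) in wild type over GST.

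Base composition of the messages moved with these ratios. The median GC content of the main transcript was 38.5% in the 4 members higher in wild type over GST, 45.2% in the 26 between and 54.5% in 45 of the 46 lower ones. Their median 3′ UTR lengths were 608.5, 394 and 232 bases. Across 75 members the log2 ratio of wild type over GST had a Pearson r with GC content of −0.70 and a Spearman rho of −0.72, and over 11455 protein-coding genes these were −0.62 and −0.62. For Ala mutant over GST they were 0.81 and 0.82 in the members, and 0.49 and 0.59 in the protein-coding genes. These describe genes of the same libraries, which are not independent. For 7 members the transcript used holds under 10% of the gene's TPM, and without those the Pearson r values were −0.65 and 0.85.

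**Figure D5:**
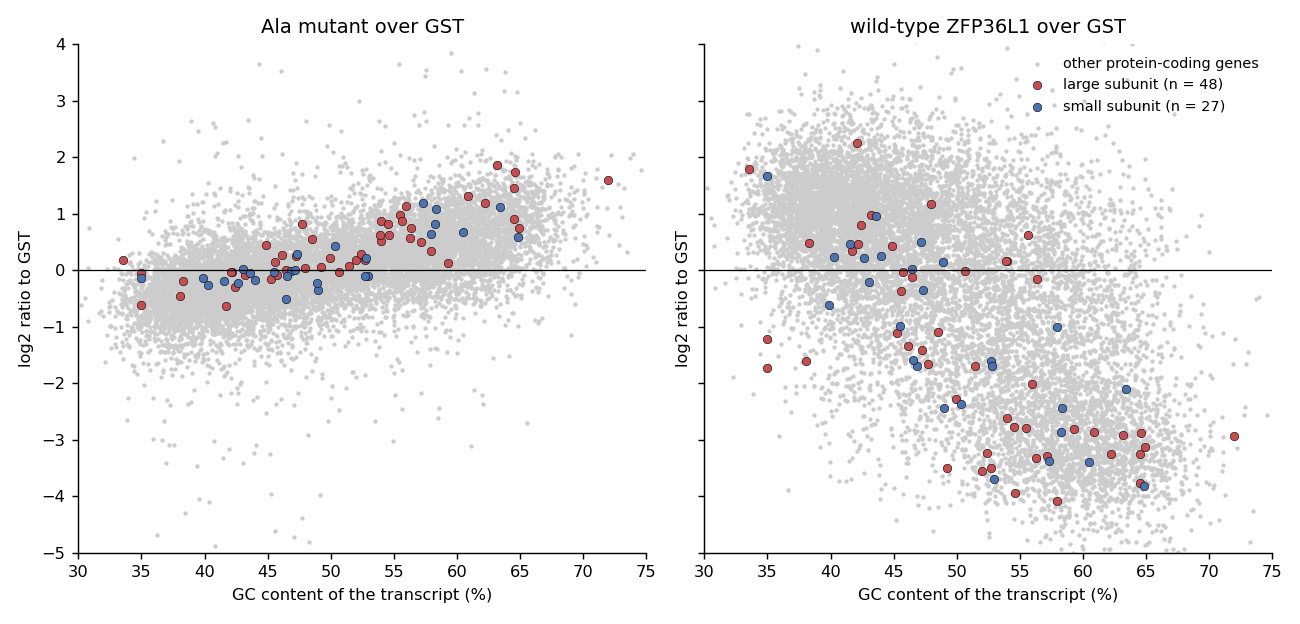
Log2 ratio against GC content of the main transcript for 75 members, for Ala mutant over GST and wild type over GST, with large-subunit and small-subunit genes marked. The points rise with GC content for the Ala mutant (Pearson r 0.81) and fall for the wild type (Pearson r −0.70).

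Set beside other protein-coding genes of like GC content, the members were lower in wild type over GST in every bin. From 45 to 50% GC the median log2 ratio was −1.09 for 19 members and 0.37 for 1911 other genes. From 50 to 55% it was −2.50 for 14 members and −0.57 for 1693 others. At 60% and above it was −3.13 for 11 members and −2.72 for 1663 others, and from 55 to 60% it was −2.80 for 12 members and −1.92 for 1775 others. At lower GC content it was 0.44 for 12 members and 0.82 for 2413 others from 40 to 45%, and −0.63 for 7 members and 1.03 for 1925 others under 40%. A fit on GC content and length was also made over all genes. It used each gene's transcript of highest mean TPM of any type, which need not be the main coding one of the bins. With that fit removed, 6 members were higher and 38 lower, beside 1981 higher and 4480 lower of 13945 genes. The median of all genes was then −0.43, and that of the members stood 0.57 below it instead of 1.57. After the same removal 1 member was higher in Ala mutant over GST, beside 642 of the 13945 genes.

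The nearest groups of messages moved in the same directions. In wild type over GST, cytosolic ribosomal proteins had 2 of 79 genes higher and 59 lower with a median log2 ratio of −2.44, and nuclear-encoded respiratory chain genes 8 of 80 higher and 49 lower with a median of −1.71. For the mutant over GST these had 12 higher and none lower (median 0.45) and 11 higher and 2 lower (median 0.39). Mitoribosomal proteins with other symbols split likewise in wild type over GST. GADD45GIP1 at −4.01, AURKAIP1 at −3.92 and CHCHD1 at −2.82 fell, PTCD3, a pentatricopeptide repeat protein of the small subunit, rose at 1.05, and DAP3, a GTP-binding protein of the small subunit, was at 0.42.

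The factors that work on this ribosome showed less of one direction. Of 16 mitochondrial translation factors 4 were higher (25%) and 5 lower (31.25%) in wild type over GST, with a median log2 ratio of 0.32. These shares lay near the 25.5% higher and 34.2% lower of all genes. GFM2, which acts in ribosome recycling, and the elongation factor GFM1 rose at 2.90 and 1.51, while TUFM, the elongation factor that delivers aminoacyl-tRNA, fell at −3.42. OXA1L, which inserts the new proteins into the inner membrane, fell at −3.70. Of 23 assembly and rRNA modification factors 2 were higher (8.70%) and 9 lower (39.1%), with a median of −0.51. With the mutant over GST 1 of the 16 and 2 of the 23 were higher, and none was lower, beside 9% higher and 5.13% lower over all genes. The mitochondrial ribosomal RNAs, made inside the organelle, fell with the wild type, at log2 ratios of −1.88 for MT-RNR1 and −1.15 for MT-RNR2, and were at 0.64 and −0.41 in Ala mutant over GST. The difference between these groups was not tested.

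Some members share sequence with other annotated genes, and their counts depend on how the program divided the reads. Sharing was measured as the part of the main transcript's 31-base words found in transcripts of other genes, and it was above 10% in 16 members. It was 92.4% in MRPL53, shared with CCDC142, 85.2% in MRPS24, shared with the read-through gene URGCP-MRPS24, 69.2% in MRPL38 and 67.2% in MRPL12, shared with AC139530.2. In MRPL46 it was 48.4%, shared with AC013489.1, and in MRPS18C it was 28.0%. Of the 4 members that rose with the wild type, MRPS36 shared 11.5% and MRPL33, MRPL42 and MRPL18 each under 1%. The pseudogene MRPS36P1 was listed with 73 counts in the Ala mutant, 232 in the wild type and 51 in GST, and MRPS31P5 with 30, 142 and 28. The strand setting of the counting is not given in the sources used here, so reads from antisense partners cannot be told apart from those of the genes.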

How the data were processed

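RNA from 1 pull-down per bait was measured, and nothing states a replicate. The submitters' processing notes name kallisto, DESeq2 and the hg19 build. What DESeq2 did, all versions and the annotation were not given in the sources used here. Per the file headers, the authors deposited an estimated count and a TPM value for each of 196354 transcripts, with lengths in bases. Here 181857 rows were joined by transcript identifier to GENCODE 29 (GRCh38), which supplied names, coordinates and sequences, and 169442 of them had equal length there. Unmatched rows held 4.20% of counts in the Ala mutant, 3.79% in the wild type and 3.92% in GST. Estimated counts were summed per gene and rounded, and 14082 genes with a mean of at least 10 were kept.

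Scaling was TMM (edgeR 4.0.16, factors 0.932, 1.05 and 1.03 for Ala mutant, wild type and GST). Log2 ratios used a prior count of 0.5, and the exact Clopper-Pearson interval had a level of 95%. The calculation was tested on simulated data. The main transcript was the protein-coding one with the highest mean TPM whose deposited length was within 10% of GENCODE 29. In 71 of 75 members it was equal. That tolerance, the ATTTA counts, the GC bins and the isoform comparison were chosen after seeing the data. Members, gene lists and the rule for named genes (the 10 highest and lowest ratios per comparison, 5 for Ala mutant over GST, the 10 highest TPM, all with the core site and all called against the majority) were chosen with earlier results of these data known. Alternatives changed scaling, count minimum, prior, unit, transcript rows, fold and GC correction.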

Additional observations from a re-analysis of the deposited data

How the results depend on the processing

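No paired analysis was possible because there was 1 library per group, and none could be left out. The count of members higher in Ala mutant over GST (10, beside 1268 of all genes) was 5 when the scaling left out the most abundant genes (all genes 778), 5 on TPM (540), 24 at a fold of 1.5 (2629), 3 at a fold of 3 (365) and 1 after the fit on GC and length (642). The counts over all genes moved in the same direction, but not always in proportion. Before the fit 13.2% of the members and 9% of all genes were higher. After it 1 of 76 members was higher, a smaller share than the 642 of 13945 genes. The count lower in Ala mutant over GST (0, all genes 722) was 2 on protein_coding rows (647), 3 on the row of highest TPM (1231) and 3 at a fold of 1.5 (1829). For the mutant over wild type the count lower (7, all genes 4235) was 11 on TPM (4548), 3 at a fold of 3 (2453) and 4 after the GC fit (2020). In wild type over GST the count higher (4, all genes 3587) was 8 at a fold of 1.5 (4927), and the members' median minus that of all genes (−1.57) was −0.57 after the GC fit. Large minus small subunit in wild type over GST (−0.38) was 0.24 on protein_coding rows and 0.15 on the row of highest TPM, and in Ala mutant over wild type (0.39) it was 0.98 and 0.03. Ala mutant over wild type turned for MRPL3 (0.36) and MRPS27 (−0.60) on the row of highest TPM. Past 0 after the GC fit were MRPL30 (0.36) and MRPS23 (−0.088) in that comparison, where the fit moved the median of all genes to 0.53, and MRPS26 (0.016) in wild type over GST, where it moved to −0.43, so 0 no longer marks no change and these are not shown to turn. MRPL38 (3.07 on protein_coding rows in wild type over GST) rests on 3.76 counts against 0, with an interval that includes 0, and shows no direction. The cause of the other changes was not tested. Other scalings moved the median of all genes in Ala mutant over GST from 0.04 to −0.17, and the share of called genes that were higher from 63.7% to 38.6%. In Ala mutant over wild type these moved from 0.04 to −0.28 and from 54.5% to 47.1%. Depth limits MRPS18A most, with 48 counts in the wild type.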
